A study of Mus musculus with 6 samples.

Results

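Integrins are cell surface receptors made of 1 alpha and 1 beta chain that tie the cell to the extracellular matrix, and 8 of their subunits are described here in primary mouse mesangial cells. They are the alpha chains that bind collagens (Itga1, Itga2 and Itga11), the alpha chains that bind laminins (Itga3, Itga6 and Itga7), Itga9, and the beta chain Itgb4. The 8 were chosen by gene symbol, and each matched 1 row among the 19730 rows of the expression table. The alpha chain sets which matrix protein is bound, while the tail of the beta chain reaches the cytoskeleton. Every alpha chain listed here pairs with the beta 1 chain (Itgb1), and the alpha 6 chain can pair with the beta 4 chain (Itgb4) as well, which links laminin to keratin filaments in the hemidesmosomes of epithelia. Mesangial cells sit between the capillaries of the kidney glomerulus in a matrix that holds collagen IV, laminin and fibronectin, and in scarring glomeruli that matrix expands and fibrillar collagen appears in it.

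RNA-Seq was carried out on 3 Control libraries and on 3 libraries of cells that had received transforming growth factor beta 1 (TGF-β1), a secreted inducer of fibrosis, at 10 ng/ml for 72 h. Both groups were cells of passage 3 to 6 and shared a medium with 25.5 mM glucose and 20% serum, so the untreated cells too were in high glucose. Values are FPKM, fragments scaled to transcript length in kilobases and to library depth in M (mega) mapped fragments, and steps in the lowest values correspond to 10.1 to 11.2 M fragments per library. Nothing in the labels states that the 3 libraries of a group came from separate cultures, so p-values measure only the spread between these libraries.

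The treatment and the cell label were checked first. Ctgf, a gene well known to respond to TGF-β, was 24.0-fold higher in the treated libraries, and all 6 response genes that were checked rose. Of 13 mesangial and contractile markers in the table, 6 (Itga8, Pdgfra, Thy1, Des, Myh11 and Rgs5) were under 1 FPKM in every library. Together the 13 summed to 3345 to 4000 FPKM in Control and to 9041 to 9612 FPKM with TGF-β1. This list mixes contractile genes with identity markers, and Acta2 is also among the 6 response genes. The sum is therefore not a measure of mesangial identity. Itga8, the integrin alpha chain that marks mesangial cells in the glomerulus, did not exceed 0.174 FPKM, while Pdgfrb was at 28.4 to 41.1 FPKM. All 8 endothelial markers in the table were under 1 FPKM in every library. The 13 podocyte and epithelial markers summed to 146 to 184 FPKM in Control and to 22.2 to 24.2 FPKM with TGF-β1, most of it the kidney cadherin Cdh16, and 7 macrophage markers summed to 87.0 to 114 and to 9.03 to 11.9 FPKM, most of it Cd14, with the leukocyte marker Ptprc listed at 0 in Control. The part of these markers in the results below was not tested. In bulk RNA, fewer cells of a type and less RNA per cell cannot be told apart.

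Among the 8 subunits, Itga7, Itga2 and Itga6 rose with TGF-β1 and Itga1 fell, while Itga3, Itga9, Itga11 and Itgb4 did not pass the test (limma, adjusted p under 0.05). Changes are differences of log2(FPKM + 1), a scale that understates the change of genes with low values, with Benjamini-Hochberg adjustment over all rows tested. The filter of a mean of at least 1 FPKM was passed by 5 of the 8 subunits, of which 2 rose and 1 fell, where 24.5% of the 11898 rows tested rose and 23.6% fell, 48.1% in all. Itga2, Itga9 and Itgb4 were under the filter and were tested with all 19730 rows. In that test 14.6% of rows rose and 16.0% fell. The groups did not overlap for 3 of the 5 subunits over the filter, and they did not overlap in 59.4% of all rows tested. The median change was 0.01 over the 5 subunits that passed the filter and -0.02 over all rows that passed it. Without the filter, it was -0.12 over the 8 subunits and -0.03 over all 19730 rows.

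**Figure D1:**
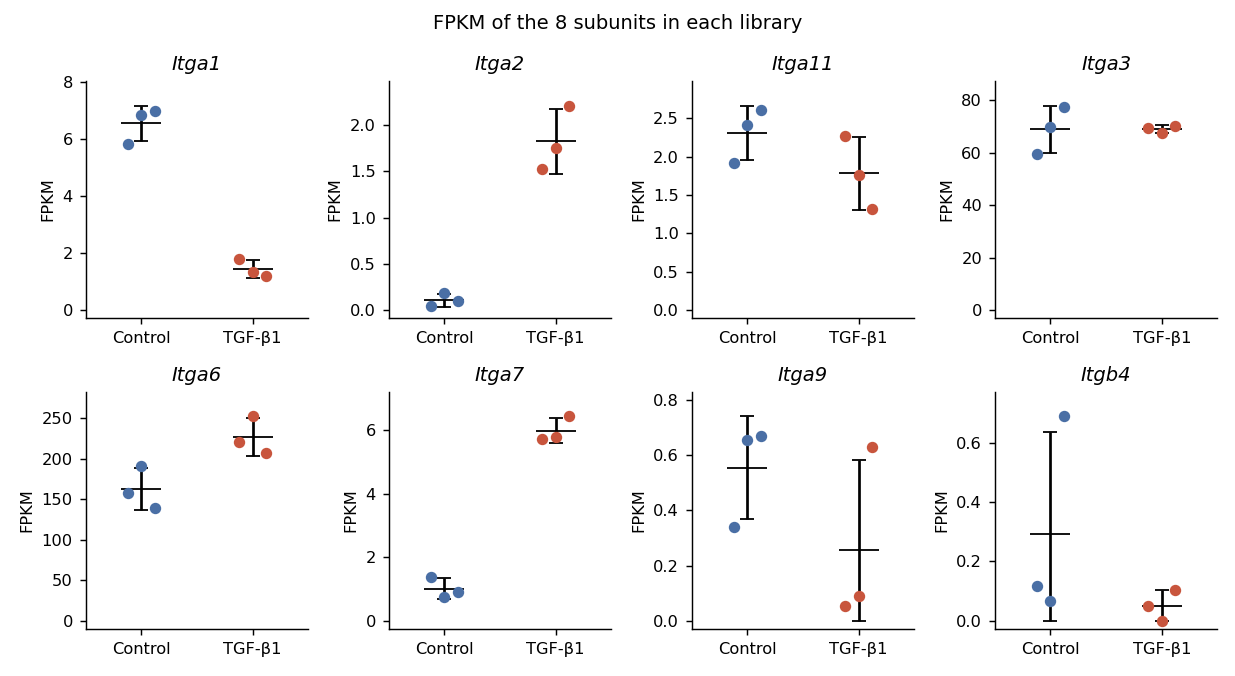
FPKM (linear axes, 1 per subunit) of the 3 collagen-binding alpha chains, the 3 laminin-binding alpha chains, Itga9 and Itgb4, where each point is 1 library, the horizontal bar is the mean and the error bar the SD (n = 3, drawn no lower than 0). The Control and TGF-β1 points do not overlap for Itga1, Itga2, Itga6 and Itga7, and Control library 3 of Itgb4 and TGF-β1 library 3 of Itga9 lie far above the rest of their groups.

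The collagen-binding chains changed in opposite directions. Itga1, the alpha chain of the receptor alpha 1 beta 1, which prefers the network-forming collagen IV, was at 5.84, 6.85 and 6.98 FPKM in Control and at 1.80, 1.33 and 1.18 FPKM with TGF-β1. Every treated library lay under every Control library. The mean was 4.56-fold lower, from 6.55 ± 0.63 to 1.44 ± 0.32 FPKM (SD, n = 3), and the log2 change was -1.64 with an SE of 0.13 (limma, adjusted p = 2.15e-04). By mean FPKM it stood at percentile 59.4 of all rows in Control and at percentile 44.7 with TGF-β1.

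Itga2, the alpha chain of alpha 2 beta 1, which prefers fibrillar collagens such as collagen I, was at 0.0451, 0.181 and 0.0924 FPKM in Control and at 1.52, 1.75 and 2.21 FPKM with TGF-β1. The Control libraries were close to the limit of detection, for by the transcript length of 4214 nt these values correspond to about 2.0, 8.1 and 4.0 fragments, against 67.0, 70.9 and 96.0 fragments in the treated libraries. Itga2 has a single annotated transcript, so this conversion does not depend on a choice of isoform. Its mean rose 17.2-fold, and the log2 change was 1.35 with an SE of 0.12 (limma over all rows, adjusted p = 5.55e-04). With 0.1 in place of 1 added to FPKM, the log2 change was 3.26.

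Itga11 (chr9:62525633-62631789, plus strand, mm9), the alpha chain of the collagen I receptor of fibroblasts, was at 1.92, 2.41 and 2.61 FPKM in Control and at 2.27, 1.76 and 1.32 FPKM with TGF-β1. These groups overlapped, and the log2 change was -0.26 (95% confidence interval -0.66 to 0.14, limma adjusted p = 0.243). The 3 collagen-binding chains therefore reached similar levels in treated cells. Itga2, Itga11 and Itga1 had means of 1.83, 1.78 and 1.44 FPKM there, and neighbours in that order overlapped in range, while in Control Itga1 lay above Itga11 and Itga11 above Itga2 with no overlap.

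Summed over these 3 chains, the level went from 8.97 ± 1.02 to 5.05 ± 0.48 FPKM. In Control, Itga1 made up 73.2% ± 1.5 of that sum, Itga11 25.7% ± 1.2 and Itga2 1.15% ± 0.69 (SD, n = 3). With TGF-β1, the shares were 28.2% ± 3.6 for Itga1, 35.0% ± 6.5 for Itga11 and 36.7% ± 9.9 for Itga2. The ratio of Itga1 to Itga2 was 129, 37.9 and 75.5 in the Control libraries and 1.18, 0.762 and 0.535 in the treated ones. Itga10, the remaining collagen-binding alpha chain, had no row under that symbol in the expression table.

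**Figure D2:**
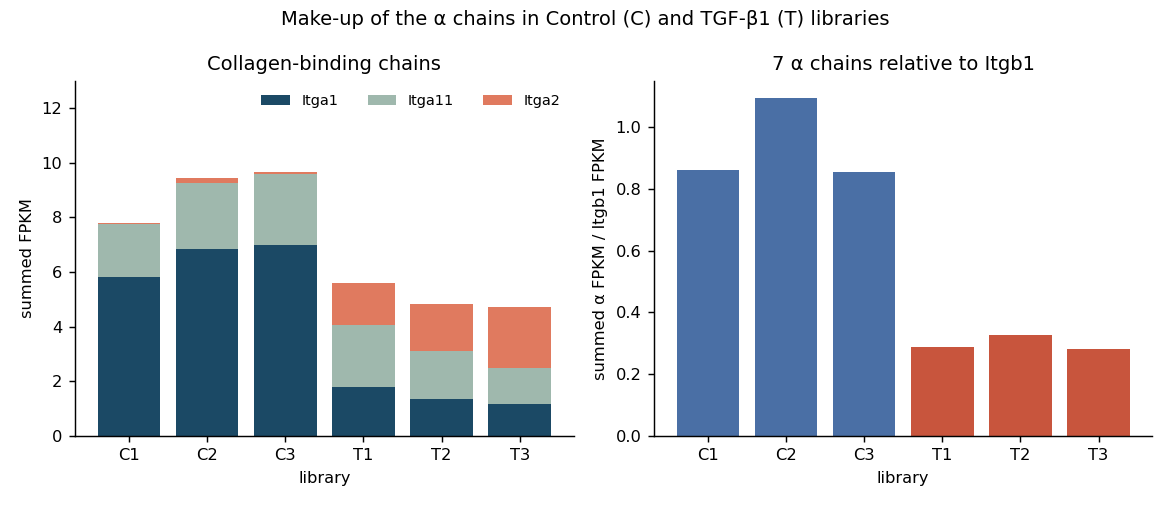
Left, stacked FPKM of Itga1, Itga11 and Itga2 in each Control (C1 to C3) and TGF-β1 (T1 to T3) library. Right, the summed FPKM of the 7 alpha chains divided by the FPKM of their partner chain Itgb1, where the mean ratio is 0.938 in Control and 0.299 with TGF-β1, or 0.307 and 0.0783 without the uncertain row of Itga6.

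Itga1 and Itga2 are neighbours on mouse chromosome 13, both on the minus strand of build mm9. Itga2 lies at chr13:115626124-115722249 and Itga1 at chr13:115748287-115892172, 26.0 kb apart. The gene Pelo lies within Itga1 on the same strand. Since this pair moved in opposite directions, the 250 bases before each start site are shown, 5′ to 3′ on the gene's strand, from the RefSeq promoter table of build GRCm38.p6 (Itga1 chr13:115101965-115102214, minus strand, and Itga2 chr13:114932101-114932350, minus strand). Capitals mark CAGAC, the short element bound by Smad proteins, on either strand (on the opposite strand it reads GTCTG).
Itga1: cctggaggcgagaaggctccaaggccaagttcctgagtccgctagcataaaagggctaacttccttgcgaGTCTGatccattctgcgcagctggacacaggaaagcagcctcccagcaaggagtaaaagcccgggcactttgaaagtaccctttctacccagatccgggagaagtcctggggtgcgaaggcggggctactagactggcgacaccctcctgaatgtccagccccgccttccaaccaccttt
Itga2: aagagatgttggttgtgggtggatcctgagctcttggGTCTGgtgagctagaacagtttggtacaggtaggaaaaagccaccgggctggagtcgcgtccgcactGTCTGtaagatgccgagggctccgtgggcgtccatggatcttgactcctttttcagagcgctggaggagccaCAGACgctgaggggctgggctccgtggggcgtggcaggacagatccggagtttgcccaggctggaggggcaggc
The Itga1 window held 1 such match, which began 180 bases before the start, and the Itga2 window held 3, which began 213, 146 and 74 bases before it. Matches of this length are frequent, and 42.2% of the 32851 promoter windows of the same length in that table held at least 1. The letters TGANTCA (the AP-1 element, in 6.75% of windows), GGGCGG (the Sp1 element, in 32.7%) and the CArG box (in 1.47%), searched on both strands, were not in either window. Among the other subunits, CAGAC was found in 1 of the 2 Itga3 windows and in neither the Itga9 nor the Itga11 window. These windows were taken by gene symbol and were not matched to the transcript of the expression row. They may therefore lie at another start site of the gene. Whether any of these letters is used in mesangial cells was not measured.

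Of the laminin-binding chains, 2 rose. Itga7 (chr10:128370869-128395333, plus strand, mm9), the alpha chain of the main laminin receptor of muscle, was at 1.37, 0.736 and 0.897 FPKM in Control and at 5.72, 5.79 and 6.43 FPKM with TGF-β1. The lowest treated library was well above the highest Control library. The mean rose 5.97-fold, to 5.98 ± 0.39 FPKM (SD, n = 3), and the log2 change was 1.81 with an SE of 0.14 (limma, adjusted p = 1.96e-04). It was the largest rise among the 5 subunits over the filter, and the gene stood at percentile 39.4 of all rows in Control and at percentile 59.3 with TGF-β1, above Itga1, Itga11 and Itga2. Of 4 skeletal muscle markers in the table, Myog, Myh3 and Ckm were under 1 FPKM in every library, and Tnnt3 was at 13.2 to 17.3 FPKM in Control and at 2.15 to 3.58 FPKM with TGF-β1.

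Itga6 (chr2:71583673-71696473, plus strand, mm9), the alpha chain of the laminin receptors alpha 6 beta 1 and alpha 6 beta 4, was at 158, 191 and 139 FPKM in Control and at 220, 252 and 207 FPKM with TGF-β1. The highest Control and the lowest treated library were close but did not overlap. The mean was 1.39-fold higher and the log2 change was 0.48 with an SE of 0.14 (limma, adjusted p = 0.0306). This call was lost without any 1 of 4 libraries (adjusted p = 0.0832 without Control 1, 0.0648 without Control 3, 0.0766 without TGF-β1 1 and 0.0814 without TGF-β1 2). It was also lost with upper quartile scaling (log2 change 0.42, adjusted p = 0.0517) and when FPKM was rescaled to the sum of the protein-coding rows (log2 change 0.29, adjusted p = 0.135), a scaling that moves the median change of all rows from -0.02 to -0.19 and the calls from 2911 higher and 2810 lower to 2015 and 3927. The deposited row is named for a transcript of 707 nt with no coding sequence, while the longest coding transcript of Itga6 has 4310 nt, so its level cannot be set with confidence against that of other genes. It also overlaps 4 non-coding genes, 2 of them on the opposite strand.

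Itga3 (chr11:94905788-94938115, minus strand, mm9), the alpha chain of alpha 3 beta 1, a receptor for laminins that is best known from podocytes and tubules in the kidney, was at 59.5, 69.8 and 77.5 FPKM in Control and at 69.5, 67.4 and 70.3 FPKM with TGF-β1. The treated libraries lay inside the range of the Control libraries. The log2 change was 0.01, with a 95% confidence interval from -0.25 to 0.27 (limma, adjusted p = 0.946), and its sign depended on the scaling. Its means were 69.0 ± 9.0 and 69.1 ± 1.5 FPKM (SD, n = 3), so the Control libraries varied more than the treated ones.

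**Figure D3:**
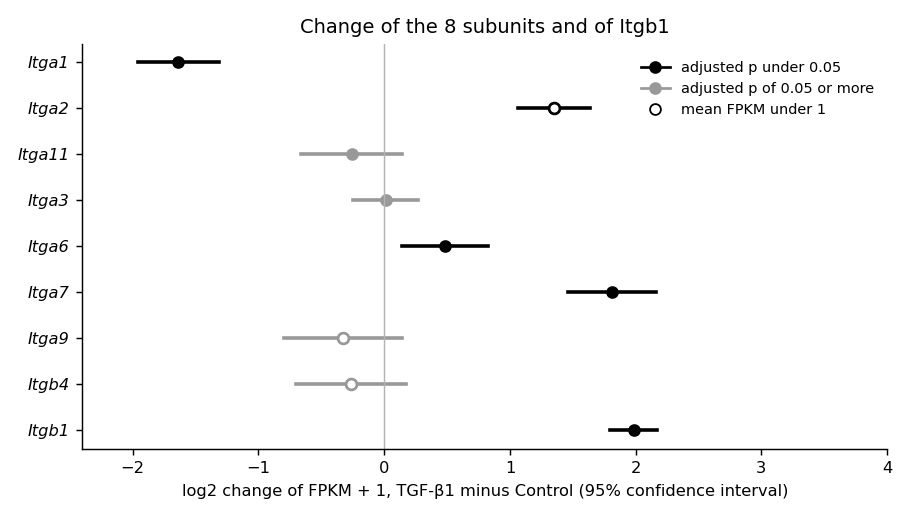
Log2 change of FPKM + 1 (horizontal axis, TGF-β1 minus Control) with its 95% confidence interval for the 8 subunits and for Itgb1, where black marks an adjusted p under 0.05, grey one of 0.05 or more, and an open point a mean under 1 FPKM. Itga7 and Itga2 lie to the right at 1.81 and 1.35, Itga1 to the left at -1.64, and the intervals of Itga3, Itga9, Itga11 and Itgb4 include 0.

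Itga9 and Itgb4 were measured on few fragments, and neither passed the test. Itga9 (chr9:118515808-118810121, plus strand, mm9), the alpha chain that binds tenascin C, osteopontin and the EDA segment of fibronectin, was at 0.338, 0.653 and 0.670 FPKM in Control and at 0.0526, 0.0898 and 0.631 FPKM with TGF-β1. Treated libraries 1 and 2 were under all Control libraries, while library 3 was among them, and 2 non-coding genes overlap Itga9 on the opposite strand. The log2 change was -0.33 (95% confidence interval -0.80 to 0.15, limma adjusted p = 0.269), and without TGF-β1 library 3 it was -0.53 with an adjusted p of 0.0439.

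Itgb4 (chr11:115836023-115869726, plus strand, mm9), whose chain joins alpha 6 in the hemidesmosome receptor, was at 0.118, 0.0673 and 0.690 FPKM in Control and at 0.0508 and 0.103 FPKM in TGF-β1 libraries 1 and 3, and was listed at 0 in TGF-β1 library 2. A single Control library held most of the signal. The log2 change was -0.27 (95% confidence interval -0.71 to 0.17, limma adjusted p = 0.336). No difference in Itgb4 was detected, and the interval leaves room for a change of either sign.

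Among the 8 levels, the places of Itga1, Itga7 and Itga2 differed between the groups. As deposited, Itga6 came first in both, but with its row's transcript length in doubt its place against Itga3 is uncertain. In Control the order by mean FPKM was Itga6, Itga3, Itga1, Itga11, Itga7, Itga9, Itgb4 and Itga2, and neighbours overlapped in range only from Itga9 downwards. In treated cells it was Itga6, Itga3, Itga7, Itga2, Itga11, Itga1, Itga9 and Itgb4, and Itga2, Itga11 and Itga1 overlapped one with the next, as did Itga9 with Itgb4. In every library 3 of the 8 subunits reached 3 FPKM, the level the study used for an expressed gene. They were Itga6, Itga3 and Itga1 in Control and Itga6, Itga3 and Itga7 with TGF-β1.

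The ratio of laminin-binding to collagen-binding chains was higher in every treated library than in any Control library. The summed FPKM of Itga3, Itga6 and Itga7 was 28.1, 27.7 and 22.4 times that of Itga1, Itga2 and Itga11 in the Control libraries, and 52.8, 67.3 and 60.3 times with TGF-β1. Without the uncertain row of Itga6, the ratio was 7.81, 7.47 and 8.10 in the Control libraries and 13.4, 15.1 and 16.3 in the treated ones, again with no overlap. Most of this lay on the collagen-binding side, whose mean sum was 1.78-fold lower with TGF-β1. The mean laminin-binding sum was 1.30-fold higher with Itga6 and 1.07-fold higher without it (70.0 ± 8.8 to 75.1 ± 1.8 FPKM, SD).

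Itgb1 (chr8:131209554-131257100, plus strand, mm9), the partner that the 7 alpha chains share, rose while their sum changed less. It was at 263, 248 and 266 FPKM in Control and at 1041, 1009 and 1028 FPKM with TGF-β1, 3.96-fold higher, with a log2 change of 1.98 and an SE of 0.08 (limma, adjusted p = 1.82e-05). The summed FPKM of the 7 alpha chains was at least 0.855 times that of Itgb1 in every Control library and at most 0.328 times in every treated one. Without the uncertain row of Itga6, the range was 0.262 to 0.334 in Control and 0.0775 to 0.0798 with TGF-β1. For Itga3 alone the ratio was 0.226, 0.282 and 0.291 in the Control libraries and 0.0668, 0.0668 and 0.0684 in the treated ones. The alpha 5 chain of the fibronectin receptor (Itga5), which shares this partner too, was 6.49-fold higher. Of the other integrin subunits, 6 of 16 in the table passed the filter. Among these 6, 4 rose (Itga5, Itgb1, Itgb3 and Itgb5) and 0 fell in the limma test, against 24.5% and 23.6% of all rows tested. The 2 of them that were not called both had an unadjusted limma p under 0.05. Itga2b, the platelet integrin chain, was lower (adjusted p = 0.0514), and Itgav was higher (log2 change 0.40, adjusted p = 0.0746). In the test of all rows, 5 of the 16 rose and 2 fell, Itga4 and Itgb6, both under 1 FPKM in every library. Over the whole of that test, 14.6% of rows rose and 16.0% fell.

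Genes with a profile like that of Itga7 and Itga1, which had the largest rise and fall on the log2(FPKM + 1) scale (Itga2 rose more as a ratio), were ranked by the root mean square difference of log2(FPKM + 1), less the Control mean, over the 6 libraries. Close to Itga7 were Pdgfa, a growth factor gene, at 0.09 and the Wnt ligand gene Wnt7b at 0.10. Nearest to Itga1 were Omd, a small proteoglycan gene, Ndrg1 and 2900006K08Rik, at 0.10, 0.11 and 0.11. Omd went from a mean of 3.16 to 0.324 FPKM and Pdgfa from 57.3 to 214 FPKM.

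The genes of the matrix proteins that these receptors bind moved in both directions, where 24.5% of all rows tested rose and 23.6% fell. Of the fibrillar collagen genes, ligands of alpha 2 and alpha 11, 6 of 8 tested rose and 0 fell (limma, and 0 were lower at an unadjusted p under 0.05), with Col5a3 21.7-fold and Col1a1 4.12-fold higher. Of the collagen IV genes, ligands of alpha 1, 4 of 6 fell, among them the chains Col4a1 and Col4a2, which were 2.11-fold and 2.90-fold lower, while Col4a3 and Col4a4 were 15.6-fold and 8.54-fold higher. Among 5 laminin chain genes tested 3 fell and 2 rose, with Lamb2 2.25-fold and Lama5 1.94-fold lower. Of 11 tested ligands of alpha 9, 6 rose, including Fn1 (8.12-fold) and Adam12 (8.89-fold), and 3 fell, including Spp1, the osteopontin gene.

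The list of receptors for collagen and laminin outside the integrins also held accessory genes of the dystroglycan complex, with Sgcb, Sgce, Sspn and Utrn tested. Of the 9 genes tested in this list 6 fell, Sgce and Sspn among them. The 1 that rose was Rpsa, which is a ribosomal protein gene as well. The laminin receptor genes Bcam and Dag1 (dystroglycan) were 13.5-fold and 3.62-fold lower. For this and the lists below, the shares over all rows tested were 23.6% lower and 24.5% higher. Tetraspanins hold laminin-binding integrins in membrane clusters, and 2 of 9 tested rose and 4 fell. Cd151, the closest partner of alpha 3 and alpha 6, was at 214 to 241 FPKM in Control and at 263 to 279 FPKM with TGF-β1 (log2 change 0.26, limma adjusted p = 0.0367), and Cd82 was 3.62-fold lower. The count of tetraspanin genes that rose was 1 and not 2 with either upper quartile or coding-row scaling and without any 1 of 4 libraries (Control 1, Control 2, TGF-β1 1 or TGF-β1 3). Of the hemidesmosome genes that would go with Itgb4, 3 of 8 passed the filter, the plakin genes Plec and Dst overlapped between groups, and Col17a1, Krt5, Krt14 and Lama3 were under 1 FPKM in every library. In the adhesion complex under the beta 1 tail, 21 of 30 genes tested rose and 2 fell, with the actin crosslinker gene Actn1 3.62-fold higher.

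**Figure D4:**
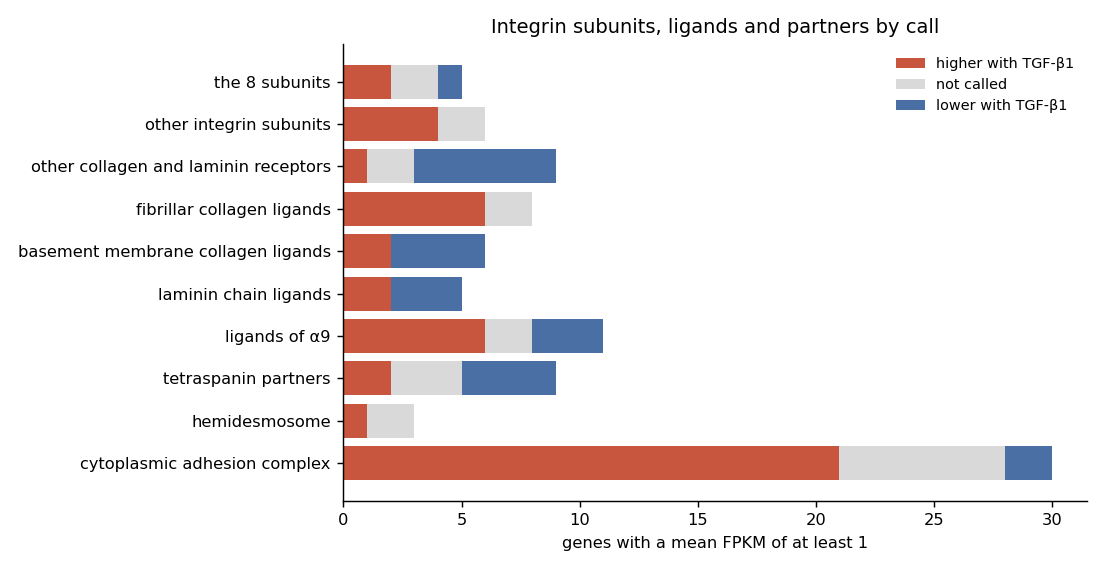
Number of genes with a mean of at least 1 FPKM (horizontal axis) called higher, lower or not called by limma in the 8 subunits and in the gene lists around them. The longest run of higher calls is in the cytoplasmic adhesion complex (21 of 30). The list of receptors outside the integrins, which includes accessory genes of the dystroglycan complex, holds 6 lower calls among 9. Over all rows tested, 24.5% were called higher and 23.6% lower.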

How the data were processed

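RNA of primary mouse mesangial cells was sequenced by the authors in 3 Control and 3 TGF-β1 libraries, grouped here by the treatment label. The deposited values are FPKM, 1 column per library. The authors removed low-quality reads, mapped to mm9 with TopHat2 (version 2.0.11 in the submitters' processing notes, while their methods give an older one) and estimated FPKM with Cufflinks. They tested with a negative binomial count model, and no counts were used here. Of 19730 rows, 19699 matched GENCODE M1 by transcript identifier. In 12178 of 12221 rows of genes with several transcripts, the name is that of the transcript with the lowest start, so a row may hold its gene's value. Whether strand was used is not stated.

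The limma package (3.58.1, R 4.3.3) was run on log2(FPKM + 1) of rows with a mean of at least 1 FPKM, with moderated two-sided tests, a mean-variance trend, p-values adjusted by Benjamini and Hochberg, and a threshold of 0.05. Subunits under that filter were tested with all rows. The procedure was tested on simulated data. Fragments were recovered from FPKM steps, with depth and fragment length chosen together for a high share of whole values. The length so chosen was 200 nt in every library. In single-transcript genes of low value, 99.4% to 99.9% of values per library were whole within 0.1 fragment. That share is the quantity the choice favoured, and it was 55.4% to 58.3% after small random shifts of the values. An FPKM of 1 in a short transcript rests on few fragments. Members and lists were chosen with earlier results of these data known. Text names all 8 subunits, Itgb1, the 2 largest called changes without overlap per list, the response genes, markers as sums, and the 3 nearest profiles of Itga7 and Itga1. Some genes that this rule selects are not reported here. Others (Itgb3, Itgb5, Itga2b, Itgav, Itga4, Itgb6, Cd151, Col4a1, Col4a2, Spp1, Pdgfrb, Plec, Dst, Rpsa, Sgcb, Sgce, Sspn, Utrn) were named after their values were seen. Promoter entries existed in the RefSeq table for 5 of the 8 subunits. Alternatives covered the pseudocount, filter, trend, scaling, replicate terms and each library left out. Python 3.11.15, numpy 2.4.6, pandas 2.3.3 and matplotlib 3.10.9 were used.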

Additional observations from a re-analysis of the deposited data

How the results depend on the processing

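Over 17 other settings of the limma fit, Itga1, Itga2, Itga7 and Itgb1 kept their direction and their call, with log2 changes of -2.13 to -1.56, 1.25 to 3.26, 1.68 to 2.50, and at least 1.79 for Itgb1. Itga2 was tested with all rows in every setting, so the settings that change only the filter repeat its main result. Itga6 kept its direction and was called in 11 of the 17 (0.29 to 0.61, adjusted p = 0.00775 to 0.135). Itga3 was never called, and its change was -0.052 with upper quartile scaling, -0.18 after rescaling to the sum of coding rows, and -0.090 to 0.098 with 1 library left out (lowest without Control replicate 1, and -0.0021 without TGF-β1 replicate 3). At an adjusted p under 0.01, 3672 rows were called. Leaving out each library in turn gave 4419 to 5446 called rows, 62 to 68 called list genes, 2 to 3 subunits higher and 1 to 2 lower, the second being Itga9 without TGF-β1 replicate 3. At 1 FPKM, 1.67 more subunits were reached with TGF-β1 than in Control, against 0 at 3 FPKM. The log2 ratio of the summed collagen-binding to the summed laminin-binding chains changed by -1.21, by -0.95 as a mean of log2 values, by -0.94 without Itga6, and by -1.30 to -1.10 without 1 library each. An alternative that added Itga10 could not be run, since the expression table had no row under that symbol. The rescaling to coding rows and the sum without Itga6 were chosen after seeing the data.

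Deviations of same-numbered libraries from their group means correlated at 0.092, 0.232 and 0.085 over genes. Those of libraries with different numbers correlated at -0.194 to 0.117. The labels state no pairs, and the main fit took none. With the replicate number as a block, 5391 rows were called, and the adjusted p was 0.00258 for Itga1, 0.00622 for Itga2, 0.0130 for Itga6 and 0.00193 for Itga7. The tetraspanin genes that rose numbered 1 under the block. Itga2 in Control, Itga9 and Itgb4 rest on few fragments, and for Itga9 and Itgb4 the libraries of a group also differed widely. By the length of the transcript that each row names, Itga9 had about 3.9, 6.2 and 46.6 fragments in the TGF-β1 libraries. Itgb4 had about 7.6, 4.4 and 43.5 in the Control libraries.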
